A study of Homo sapiens with 6 samples.

Results

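The 10 genes described here belong to the YAP and TEAD branch of the Hippo pathway: YAP1, WWTR1, TEAD1, CCN1, CCN2, ANKRD1, AMOTL2, LATS2, AJUBA and AXL, out of 20007 protein-coding genes. They were chosen by name, as regulators or targets of the pathway, and each was taken as its GENCODE v44 gene body plus 20 kb on either side. The rule used no measured value, but the genes were chosen with earlier results of these data known. Chromatin accessibility was measured by ATAC-seq, which marks open DNA by the insertions of Tn5 transposase, in 6 libraries of MCF10A, a human breast epithelial line that is established in culture and does not form tumors. All cells were first held for 30 min in a phosphate-free salt buffer, so the buffer change is shared by every group. Control cells then stayed in the buffer for another 30 min with no addition, TPA cells received 50 μM TPA, a cell-permeable Zn2+ chelator, for 30 min, and ZnCl2 cells received 30 μM ZnCl2 for 30 min. There were 2 libraries per group, called replicates 1 and 2. The study's text calls the replicates biological in one place and technical in another, so the p-values below measure only the spread between these libraries.

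Hippo signaling controls growth and responds to cell density, shape and tension. Its kinases phosphorylate the coactivator YAP and its paralogue TAZ, which keeps them out of the nucleus. When the kinases are inactive, YAP and TAZ enter the nucleus, bind the TEAD proteins, which recognize the bases GGAATG, and switch on target genes. Many TEAD-bound enhancers also hold a site for AP-1, the dimer of FOS and JUN proteins, with the bases TGANTCA. In flat cultures of mammary epithelial cells this pathway is a well-known reader of crowding and adhesion.

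The deposited lists hold, for each library on its own, the regions called open and a whole-number score that the caller gave each region. The lists hold no reads, so sequencing depth is unknown, and a score cannot be turned into a fold change. A score was therefore read as its percentile, the percent of regions in the same library's list with a lower score. List length on the assembled chromosomes was 25031 and 44641 regions in control 1 and 2, 35902 and 41376 in TPA 1 and 2, and 38069 and 18887 in ZnCl2 1 and 2. The 2 control libraries and the 2 ZnCl2 libraries thus differed by a wide margin in list length. For this reason results are also given with an equal number of regions per library, the 18887 with the highest scores. The markers of mammary epithelium gave a mixed picture. Of those reported here, SFN, ITGB4 and the adjacent keratin genes KRT8 and KRT18, whose starts share 1 region, were open in all 6 libraries. KRT5 and KRT17 lacked a call in ZnCl2 2, and KRT14 lacked one in control 1 and ZnCl2 2. The epithelial cadherin CDH1 was called in both TPA libraries and ZnCl2 1 but in neither control, EPCAM in TPA 2 alone, and TP63 in no library. Among 10 markers of other cell types, the sole call was GFAP, in ZnCl2 1.

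The sequences that tie these genes to TEAD lie upstream of CCN2 and ANKRD1, genes long used as readouts of YAP activity. CCN2 encodes a secreted matricellular protein, and ANKRD1 encodes an ankyrin-repeat protein of the nucleus and sarcomere. The lines below give the 250 bases before each gene start from RefSeq (GRCh38.p14) on the gene's own strand. CCN2 spans chr6:131951373-131951622 and ANKRD1 spans chr10:90921088-90921337, both on the minus strand. The third line gives the central 300 bases, plus strand of hg38, of an open region upstream of CCN2, chr6:131954611-131954910. Capitals mark the TEAD bases, on either strand, and the AP-1 bases. On the other strand the TEAD site reads as CATTCC.
CCN2 promoter: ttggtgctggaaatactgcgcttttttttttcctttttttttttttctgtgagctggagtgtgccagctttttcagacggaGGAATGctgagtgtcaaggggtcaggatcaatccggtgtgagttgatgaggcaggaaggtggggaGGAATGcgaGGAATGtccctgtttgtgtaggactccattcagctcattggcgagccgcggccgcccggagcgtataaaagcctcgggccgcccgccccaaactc
ANKRD1 promoter: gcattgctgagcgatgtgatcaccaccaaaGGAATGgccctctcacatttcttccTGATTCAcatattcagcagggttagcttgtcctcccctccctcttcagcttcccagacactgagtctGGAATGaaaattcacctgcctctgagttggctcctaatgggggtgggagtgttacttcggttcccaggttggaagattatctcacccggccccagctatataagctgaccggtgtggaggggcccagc
CCN2 upstream region: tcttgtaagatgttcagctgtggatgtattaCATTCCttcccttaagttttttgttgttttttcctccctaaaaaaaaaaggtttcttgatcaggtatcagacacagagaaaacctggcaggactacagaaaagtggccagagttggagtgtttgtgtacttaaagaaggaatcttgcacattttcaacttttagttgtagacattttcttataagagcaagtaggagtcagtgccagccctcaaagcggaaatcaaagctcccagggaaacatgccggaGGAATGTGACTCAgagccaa

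The CCN2 promoter holds 3 copies of GGAATG, which begin 169, 104 and 95 bases before the gene start. ANKRD1 holds 2 copies, 220 and 128 bases before its start, and 1 TGANTCA match between them. Across 35116 RefSeq promoters, 11.9% held at least 1 copy in the same 250 bases, 0.940% held at least 2 and 0.0826% held at least 3, while 6.57% held TGANTCA. RefSeq promoters were found for 8 of the 10 genes, all but CCN1 and TEAD1, and gave 12 promoters, all identical to hg38. Further single copies of GGAATG lay before YAP1 (162 bases from its start), a second start of AJUBA (59 bases), the MANE Select start of AMOTL2 (69 bases) and a second start of AXL (212 bases). In the upstream CCN2 region, GGAATG is followed directly by TGANTCA without overlap. That joined motif, on either strand, was found in 13 of 49527 region centers across the genome, or 0.0262%, and was looked for after it had been seen at CCN2. A match is a description of the letters and not a measurement of binding.

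The gene starts of 9 of the 10 genes were open in at least 4 of the 6 libraries. An open region covered the GENCODE gene start of 6 genes (YAP1, TEAD1, CCN2, AMOTL2, LATS2 and AXL) in all 6 libraries. Among all protein-coding genes 39.4% were open in all 6 and 39.7% in none. Counted by library, the number of open starts was 7 and 9 of 10 in control, 9 and 9 in TPA, and 9 and 6 in ZnCl2, while the share of all protein-coding starts was 46.6% and 57.6%, 50.4% and 52.7%, and 55.8% and 43.6%. The groups overlapped. In a bulk sample, a region open in fewer cells and one less open in each cell cannot be told apart. The 3 genes with partial coverage were targets or a regulator: CCN1 and ANKRD1 lacked a call in control 1 and ZnCl2 2, and AJUBA lacked one in ZnCl2 2. Those 2 libraries have the shortest lists. With an equal number of regions, 7 and 7, 7 and 6, and 6 and 6 starts were open, against 41.8% and 45.1%, 38.3% and 39.1%, and 45.0% and 43.6% of all protein-coding starts. ANKRD1 was open in 0 libraries and CCN1 in 1, TPA 1.

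WWTR1, which encodes TAZ, was the exception among the 10 genes. Its GENCODE gene start (chr3, 149736714, minus strand) was not open in any library. The start of its MANE Select transcript, 78689 bases further into the gene at 149658025, was open in all 6. Percentiles there were 84.9 and 92.6 in control, 67.0 and 84.3 in TPA, and 90.6 and 68.0 in ZnCl2. The widths were 2140 and 3900 bp, 2330 and 2950 bp, and 2860 and 2310 bp. At the MANE Select start the TPA percentiles lay below both controls by a mean of 13.1 points (75.6 ± 12.2 against 88.7 ± 5.47, SD, n = 2 each, difference -13.1). The exact two-sided permutation test gave p = 0.333, which is the smallest value that 2 libraries against 2 can reach, so no gene below could pass 0.05. Another coding start of WWTR1 that was open in all 6 libraries, in the region chr3:149575181-149576930, stood at 60.8 and 85.0 in control, 90.4 and 82.3 in TPA, and 85.4 and 58.8 in ZnCl2, and there the groups overlapped. The MANE Select region also holds the start of the antisense gene WWTR1-AS1, and ATAC-seq cannot tell their directions apart.

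**Figure D1:**
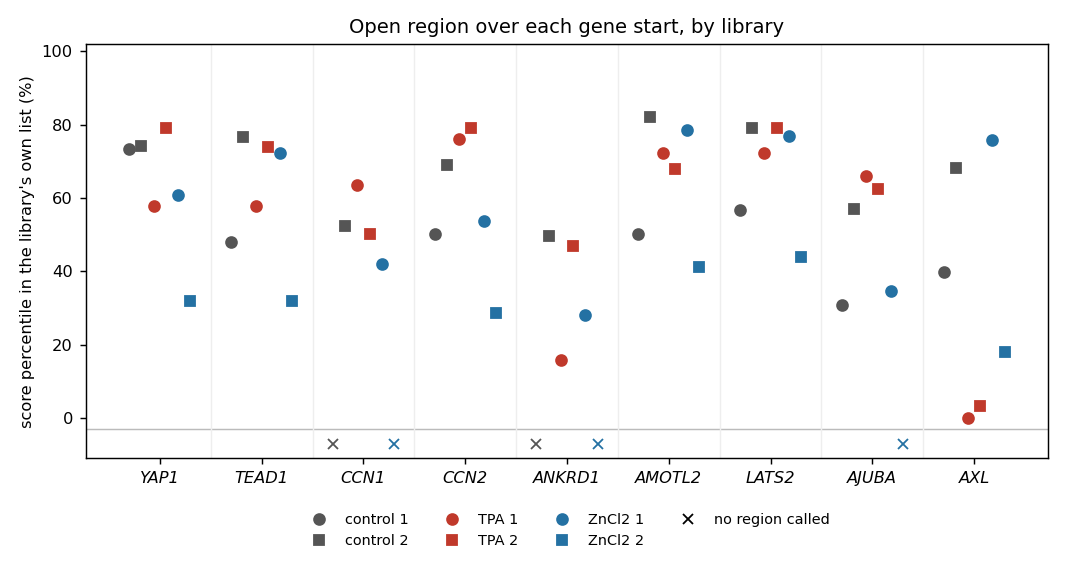
Score percentile (y axis, percent of regions in the same list with a lower score) of the open region over the gene start of 9 genes (x axis), with 1 point per library and crosses for libraries with no call. AXL has its TPA points at 0 and 3.39, and ZnCl2 2 is the lowest called library for YAP1, TEAD1, CCN2, AMOTL2 and LATS2.

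Of the core factors, YAP1 is the coactivator and TEAD1 the DNA-binding partner. At the YAP1 start (chr11, 102110447) percentiles were 73.3 and 74.1 in control, 58.0 and 79.0 in TPA, and 60.8 and 32.0 in ZnCl2. Both ZnCl2 libraries lay below both controls, by -27.3 points in the mean (46.4 ± 20.4 against 73.7 ± 0.543, SD, n = 2 each, exact permutation p = 0.333), while the TPA libraries lay on either side of control. At the TEAD1 start (chr11, 12674421) they were 47.9 and 76.6 in control, 58.0 and 73.8 in TPA, and 72.4 and 32.0 in ZnCl2. All 3 groups overlapped at TEAD1. Widths at YAP1 ran from 2980 to 4820 bp and at TEAD1 from 1670 to 3260 bp, with both extremes of both genes in the control group.

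The secreted targets CCN1 and CCN2 were open with TPA in both libraries. CCN2 (chr6, start at 131951372) had percentiles of 50.1 and 69.0 in control, 76.0 and 79.0 in TPA, and 53.8 and 28.7 in ZnCl2. The TPA libraries lay above both controls, by 17.9 points in the mean (77.5 ± 2.09 against 59.5 ± 13.3, SD, n = 2 each, exact permutation p = 0.333), and the ZnCl2 libraries overlapped with control. Ranked among start-site regions only, CCN2 stood below both controls with ZnCl2, at 22.6 and 15.6 against 29.5 and 34.2 (difference -12.8), as did 20.2% of 8090 protein-coding genes. With an equal number of regions CCN2 stood at 33.9 and 26.6 in control and at 54.4 and 53.9 in TPA, again without overlap. CCN1 (chr1, 85580761), a close relative of CCN2 and an early YAP target, was called at 52.3 in control 2, at 63.4 and 50.3 in TPA and at 41.9 in ZnCl2 1. The TPA calls of CCN1 lay on either side of its single control call, and its single ZnCl2 call lay below all of these. ANKRD1 (chr10, 90921087) was called at 49.7 in control 2, 15.9 and 47.0 in TPA and 28.1 in ZnCl2 1, and its regions were narrow, from 630 to 1060 bp, against 2430 to 4040 bp at CCN2.

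AMOTL2, LATS2 and AJUBA act on the YAP protein or its kinases, and AJUBA stood above control with TPA. AMOTL2, an angiomotin that binds YAP and holds it outside the nucleus, had percentiles of 50.1 and 82.1 in control, 72.2 and 68.0 in TPA and 78.6 and 41.2 in ZnCl2. LATS2, the kinase that phosphorylates YAP, had 56.8 and 79.0, 72.2 and 79.0, and 76.8 and 43.9. Neither gene separated a treatment from control by percentile in the whole list. Ranked among start-site regions only, LATS2 stood at 35.8 and 48.7 in control and at 52.3 and 57.6 in TPA, without overlap, a pattern that 23.8% of 8915 protein-coding genes showed on that ranking. The region over the AMOTL2 start was wider in both ZnCl2 libraries (3560 and 3600 bp) than in control (2590 and 3520 bp), and that over the LATS2 start was narrower in TPA (1880 and 1900 bp) than in control (2020 and 2470 bp). AJUBA, a LIM protein that restrains LATS kinases, had a wide region of 7000 to 7940 bp that also covers the divergent transcript AJUBA-DT. Its percentiles were 31.0 and 56.9 in control, 65.9 and 62.4 in TPA and 34.5 in ZnCl2 1. Both TPA libraries were above control, by 20.2 points in the mean (64.1 ± 2.47 against 44 ± 18.4, SD, n = 2 each, exact permutation p = 0.333).

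AXL gave the largest start-site difference among the 10 genes. It encodes a receptor tyrosine kinase for GAS6 and is a known YAP target in epithelial cells. The region over its start (chr19, 41219223) had percentiles of 39.9 and 68.2 in control, 0 and 3.39 in TPA, and 75.7 and 17.9 in ZnCl2. Its scores were 41 and 72 in control, 30 and 31 in TPA, and 79 and 34 in ZnCl2, where 30 is the lowest score in any list. By rank from the top, the TPA regions were number 34686 of 35902 and 38612 of 41376. The TPA libraries were far below both controls and the ZnCl2 libraries overlapped with control. The mean difference with TPA was -52.3 points (1.70 ± 2.40 against 54.0 ± 20.0, SD, n = 2 each, exact permutation p = 0.333). Of 8915 protein-coding genes with a call in those 4 libraries, this was the 32nd lowest difference. Ranked among start-site regions only, the difference was -26.4 points (0 and 0.996 in TPA against 20.7 and 33.1 in control), and 5.36% of those genes had a lower one, in place of 0.348%. On that ranking 23.6% of them lay below both controls with TPA. With ZnCl2, 13.2% of 8090 genes lay above both controls on it, and 0 of the 6 genes tested here did. The region did not become narrower: it measured 1610 and 3280 bp in control, 3310 and 2620 bp in TPA and 3190 and 1880 bp in ZnCl2.

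The low rank of the AXL start with TPA did not extend to the next open region. That region, chr19:41221591-41227490, begins 130 bases after the merged start region ends and covers a second coding start of AXL. Its percentiles were 67.7 and 77.8 in control, 87.9 and 82.3 in TPA, and 57.5 and 38.5 in ZnCl2. Where a library had more than 1 call in a merged region, the highest was taken; the call over the second start itself was at 86.9 in TPA 1 and the same in the other libraries. Here TPA lay above control by 12.4 points (85.1 ± 3.97 against 72.8 ± 7.13, SD, n = 2 each) and ZnCl2 below it by a difference of -24.8 points (48.0 ± 13.4), each with an exact permutation p = 0.333. When any coding start of each of the 10 genes was allowed and the region with the highest score taken, 0 of those that could be tested were lower with TPA. The lines below give the 250 bases before each of these starts from RefSeq (GRCh38.p14, plus strand), shown because the 2 regions lay on opposite sides of control with TPA. The first covers chr19:41218973-41219222 and the second chr19:41226505-41226754, and capitals mark CATTCC, the minus-strand form of GGAATG. The first start holds neither motif in this window.
AXL gene start: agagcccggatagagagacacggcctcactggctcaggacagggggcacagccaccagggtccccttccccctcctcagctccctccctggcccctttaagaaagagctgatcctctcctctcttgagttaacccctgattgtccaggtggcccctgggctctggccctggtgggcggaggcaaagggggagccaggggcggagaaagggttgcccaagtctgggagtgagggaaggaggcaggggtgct
AXL second start: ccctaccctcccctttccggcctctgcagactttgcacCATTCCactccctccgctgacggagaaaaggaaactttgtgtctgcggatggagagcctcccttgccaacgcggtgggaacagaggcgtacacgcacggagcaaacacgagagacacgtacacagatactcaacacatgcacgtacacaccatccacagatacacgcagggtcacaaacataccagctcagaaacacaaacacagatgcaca

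**Figure D2:**
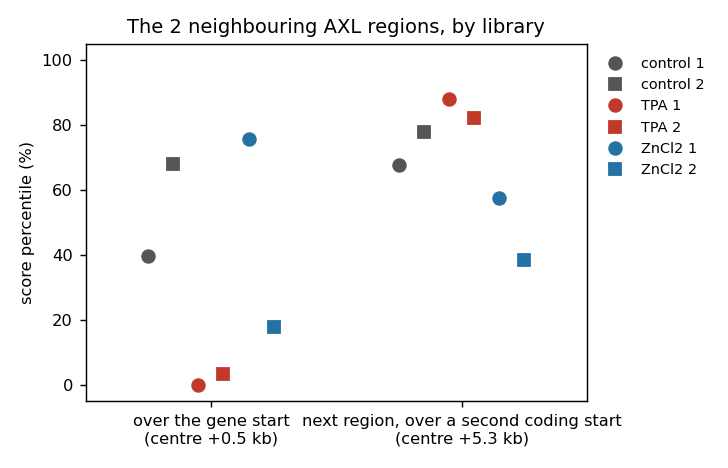
Score percentile (y axis) in each of the 6 libraries for the AXL region over the gene start and for the region after it (x axis). The TPA points are the lowest at the gene start (0 and 3.39) and the highest in the next region (87.9 and 82.3).

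Read over the whole list, the percentile of 7 genes could be tested with TPA, because they had a call in both TPA and both control libraries. Both TPA libraries were above both controls for 2 genes, CCN2 and AJUBA, and below for 1, AXL. The background over 8915 protein-coding genes was 11.8% above and 21.9% below. With ZnCl2, 6 genes could be tested, and 0 were above and 1, YAP1, was below, against a background of 2.74% above and 13.6% below over 8090 genes. The TPA counts became 5 above without control 2 and 5 below without control 1 (2 below without TPA 2), and the ZnCl2 counts 1 above without ZnCl2 2, 6 below without ZnCl2 1 and 5 below without control 1. With so few genes tested, nothing particular to the group can be read from these counts. The median difference of the tested genes was 4.0 points with TPA and -8.79 with ZnCl2, against -0.0701 and -2.78 over all tested protein-coding genes. Its direction rests on single libraries. Taken instead as the library's median over the genes open in every library, the difference between groups was 8.01 with TPA and -9.71 with ZnCl2. It became -4.58 with TPA without control 1, and 11.3 with ZnCl2 without ZnCl2 2 and 2.88 without control 2. For the width of the start-site region, 0 genes were wider and 1, LATS2, was narrower with TPA (background 1.82% and 16.5%), and 1, AMOTL2, was wider and 0 narrower with ZnCl2 (background 10.7% and 2.61%). Without control 2, the wider counts were 6 with TPA and 5 with ZnCl2, and without control 1 the narrower counts were 8 and 5. Leaving out TPA 2 gave 1 wider gene with TPA, and leaving out ZnCl2 2 gave 1 narrower gene with ZnCl2.

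**Figure D3:**
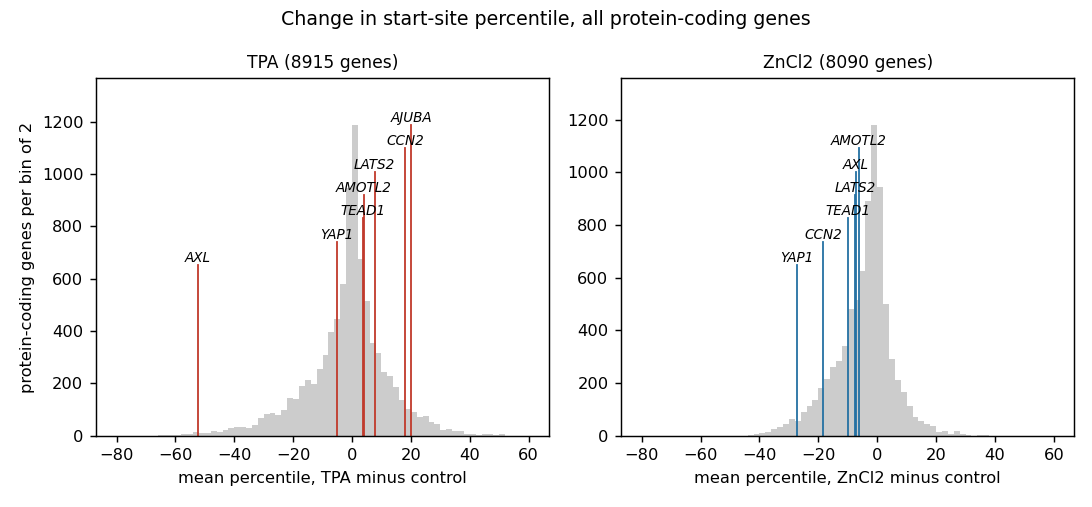
Number of protein-coding genes (y axis, bins of 2 points) by the difference in mean start-site percentile, treated minus control (x axis), for TPA on the left and ZnCl2 on the right, with the tested genes of the YAP and TEAD group marked by lines whose height carries no value. AXL at -52.3 lies in the lower tail with TPA, and YAP1 at -27.3 is the lowest of the group with ZnCl2.

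By likeness over the 6 percentiles, the 3 protein-coding genes nearest to CCN2 among 7877 open in all libraries were ESD, OSBPL7 and SEC24C, at distances of 8.60, 11.6 and 12.1 percentile points (Euclidean). CCN1 and ANKRD1 were not open in every library, so no neighbor was sought for them.

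Beyond the starts, the windows of the 10 genes held 59 merged regions of the 49527 found when the 6 lists were joined. TEAD1 had 18 of them, WWTR1 10, YAP1 7, AMOTL2 5, LATS2 5, AXL 4, CCN1 3, AJUBA 3, CCN2 2 and ANKRD1 2. By place, 9 covered a gene start, 3 another coding start of the same gene, 8 an exon and 25 an intron, and 8 lay upstream and 6 downstream. Of the 59, 20 (33.9%) were open in all 6 libraries and 6 (10.2%) in a single library, against 32.0% and 16.7% of all merged regions. Some windows reach into neighbors: COMMD2 starts in the WWTR1 window, HAUS4 in that of AJUBA and HNRNPUL1 in that of AXL. The region over the HNRNPUL1 start had the highest mean percentile, 91.3, of the 20 regions open in all 6 libraries.

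**Figure D4:**
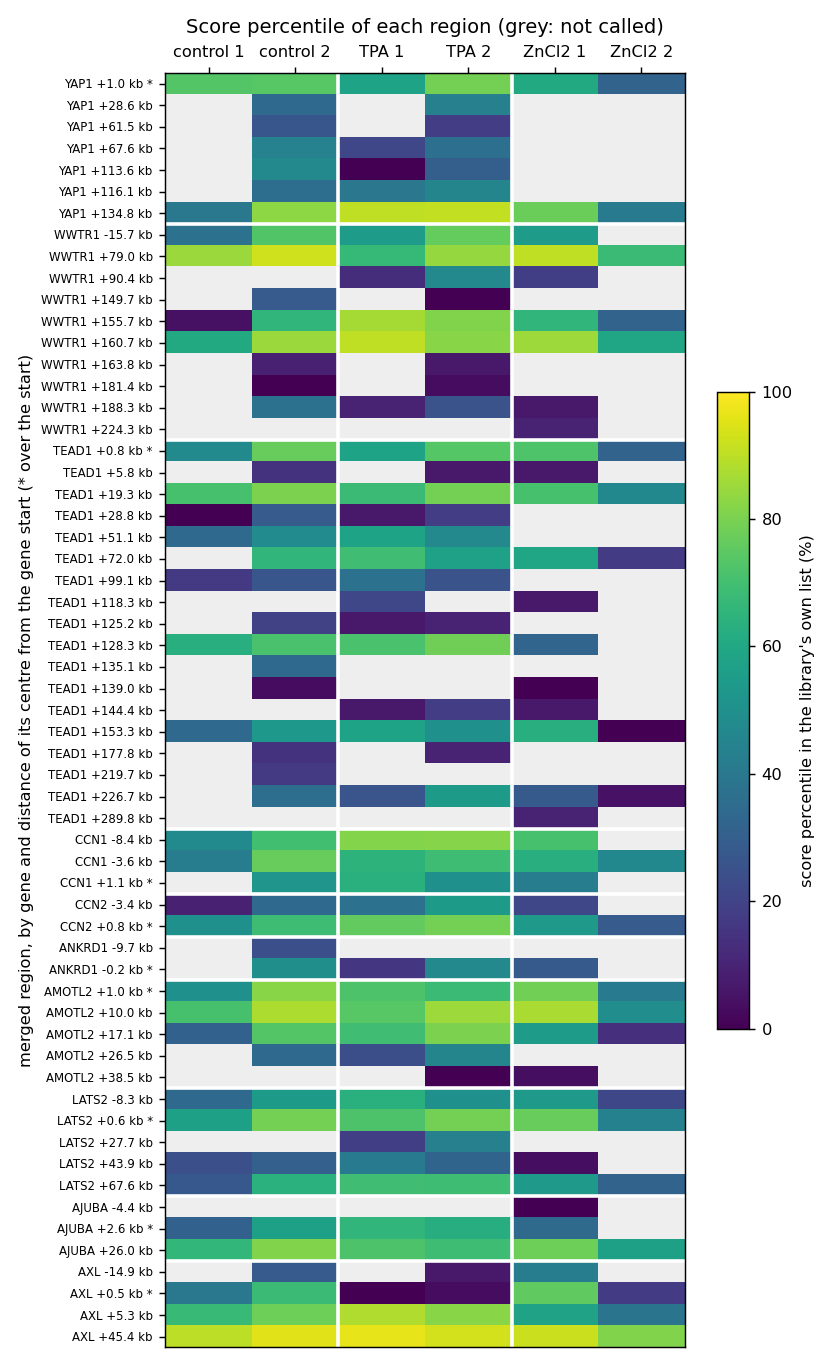
Each row is a merged open region, labelled by gene and by the distance of its center from the gene start in kb, and each column is a library. Color gives the score percentile and grey means no call; the calls thin out in control 1 and ZnCl2 2, which have the shortest lists, and the AXL start darkens in both TPA libraries.

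The open share of the windows rose with list length, except that ZnCl2 2, with the shortest list, stood above control 1. Open bases made up 4.44% and 11.5% of the windows in control, 6.55% and 9.37% in TPA, and 6.84% and 4.72% in ZnCl2. A single TEAD1 call of 29740 bp was part of the 111.69 kb open in TPA 2. The windows of all protein-coding genes, taken in the same way, were 2.55% and 6.21%, 3.50% and 5.03%, and 4.58% and 3.43% open. All 6 libraries were more open in the windows of the 10 genes, and the treatment groups overlapped with control. With an equal number of regions the shares of the 10 windows still differed. They were 4.08% and 6.26% in control, 4.94% and 4.38% in TPA, and 4.45% and 4.72% in ZnCl2. The number of regions in the windows was 29 and 53 in control, 45 and 54 in TPA, and 43 and 22 in ZnCl2, which is 11.6 and 11.9, 12.5 and 13.1, and 11.3 and 11.6 per 10000 regions of the list. The mean window of all protein-coding genes held 0.717 and 0.622 regions per 10000 in control, 0.640 and 0.619 in TPA, and 0.678 and 0.770 in ZnCl2, against 1.16 and 1.19, 1.25 and 1.31, and 1.13 and 1.16 for the mean window of the 10 genes. Counts per window take no account of window length, which ran from 43197 bp at CCN2 to 310317 bp at TEAD1. The TEAD1 window alone held 7 and 16 regions in control. With an equal number of regions the counts in the 10 windows were 25 and 23, 28 and 26, and 25 and 22. Per mean window this was 2.5 and 2.3, 2.8 and 2.6, and 2.5 and 2.2, against 1.43 and 1.41 in control, 1.35 and 1.34 in TPA, and 1.48 and 1.45 in ZnCl2 over all protein-coding genes. The TPA counts of the 10 genes were above control by at most 5 regions at an equal number, and the closest libraries held 26 and 25. Over all protein-coding genes the TPA values were below control. This contrast was not tested, and ties at the edge of these lists were broken in a random order. The AJUBA window, at 22.2% in control 2, was the most open in each library but ZnCl2 2, where it stood at 5.27% and AMOTL2 led with 18.6%. The ANKRD1 window, from 0% in control 1 and ZnCl2 2 to 5.65% in control 2, was the least open in each library but control 2.

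**Figure D5:**
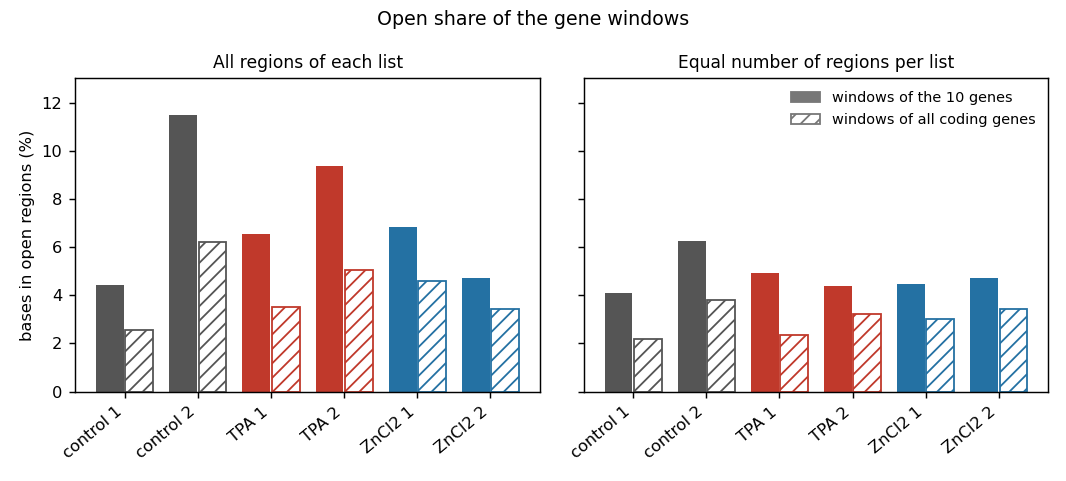
Percent of bases in open regions (y axis, bars from 0) per library (x axis), for the windows of the 10 genes (filled) and of all protein-coding genes (hatched), with all regions on the left and an equal number of regions per list on the right. The filled bars exceed the hatched ones in all 6 libraries of both panels, and control 2 is highest.

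Several distal regions were open in every library. For each gene with such a region away from its gene start, the one with the highest mean percentile was 134809 bases from the start of YAP1 and past its end (mean percentile 70.4), over the MANE Select start of WWTR1 (81.2), in an intron of TEAD1 19281 bases from the start (69.2), 3585 bases before CCN1 (60.4), over an exon of AMOTL2 (75.7), in an intron of LATS2 (52.6), over the HAUS4 start near AJUBA (70.6) and over the HNRNPUL1 start near AXL (91.3). CCN2 and ANKRD1 had none. The region given for CCN1 also covers an exon of the neighboring gene DDAH1. The region past the end of YAP1, chr11:102244041-102246470, stood at 39.9 and 83.0 in control, 90.4 and 90.7 in TPA, and 77.4 and 41.2 in ZnCl2. Its TPA percentiles were above both controls, and its center holds both GGAATG and TGANTCA. The CCN2 upstream region with the joined motif, chr6:131953851-131955670, centered 3389 bases before the gene, stood at 9.08 and 34.3 in control, 37.4 and 54.6 in TPA and 21.2 in ZnCl2 1, with no call in ZnCl2 2. It too lay above both controls with TPA, but at an equal number of regions TPA 2 alone called it. The TEAD1 intron regions chr11:12692192-12695211 and chr11:12701722-12704701 also hold both motifs, and they overlapped with control in TPA. Among the distal regions tested, the largest rise with TPA, 48.6 points, was in the WWTR1 intron region chr3:149579031-149582920, whose center holds neither. A link between motif and change was not tested.

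Counted over all regions away from coding starts that could be tested with TPA, 6 of 16 were above both controls (2 in LATS2 and 1 each in YAP1, WWTR1, CCN1 and CCN2) and 0 were below. This is close to the background, since 34.0% of 12788 such regions across the genome were above and 5.47% below. The median difference was 10.8 points in the windows and 9.29 over all such regions. With ZnCl2, 9 regions could be tested, and 0 were above and 0 below, against 2.54% and 22.1% of 7829. One of the 6 was an intronic region of WWTR1 at chr3:149579031-149582920, in which the calls did not cover the same bases. Control 1 called its first part alone, at 4.60, and control 2 called both parts as 1 region, at 65.7. The TPA libraries called the parts separately, at 75.1 and 74.7 for the first and at 86.5 and 81.0 for the second. The region 8385 bases before CCN1, chr1:85570841-85573910, had 47.9 and 69.8 in control and 81.5 and 81.7 in TPA (difference 22.7, exact permutation p = 0.333). The count above control with TPA was 15 without control 2 and 10 without TPA 2, and that below was 8 without control 1 and 1 without TPA 2. With ZnCl2 the count above was 4 without control 2 and 3 without ZnCl2 2, and that below was 9 without control 1, 5 without ZnCl2 1 and 2 without ZnCl2 2. This measure was chosen after the values had been seen.

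Gained regions were those with a call in both treated and in no control library, and lost regions those with the opposite pattern. With TPA, 3 of 59 regions (5.08%) were gained and 0 lost, against a background of 2.04% and 0.703% of all merged regions. All 3 lie in introns, of WWTR1 (chr3:149645921-149646620), TEAD1 (chr11:12818382-12819271) and LATS2 (chr13:21033271-21034570). They ranked low, at percentiles of 13.1 and 47.0 in the TPA libraries for WWTR1, 6.79 and 18.1 for TEAD1, and 18.6 and 43.7 for LATS2. The regions in WWTR1 and TEAD1 were called in ZnCl2 1 as well, and that in LATS2 in TPA alone, with widths of 1300 and 1080 bp. Without control 2 the number gained was 13, and without control 1 the number lost was 4.

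With ZnCl2, 0 regions were gained (background 0.172%) and 3 of 59 (5.08%) were lost (background 1.73%), all in TEAD1. They lie at chr11:12701722-12704701, chr11:12723402-12727571 and chr11:12758652-12788391. Their percentiles in control were 0 and 28.6, 34.2 and 48.4, and 16.8 and 26.6, and both TPA libraries called all 3. The number lost was 17 without control 1 and 9 without ZnCl2 1, and the number gained was 7 without ZnCl2 2 and 2 without control 2. The width of the third, 29740 bp, comes from the call in TPA 2 alone; the other calls there measured 970, 4010 and 820 bp. The central 300 bases of the lost region nearest the start and of the LATS2 region called in TPA alone are shown, since both hold a GGAATG site (in capitals, as is TGANTCA). They come from hg38, plus strand, at chr11:12703062-12703361 and chr13:21033771-21034070. The TPA 2 call in the TEAD1 region, chr11:12703982-12704531, does not cover the bases shown. Both regions were picked for their GGAATG site. The centers of the other regions gained with TPA or lost with ZnCl2 hold none, and 30.5% of all 59 regions in the windows hold the site.
TEAD1 intron, not called with ZnCl2: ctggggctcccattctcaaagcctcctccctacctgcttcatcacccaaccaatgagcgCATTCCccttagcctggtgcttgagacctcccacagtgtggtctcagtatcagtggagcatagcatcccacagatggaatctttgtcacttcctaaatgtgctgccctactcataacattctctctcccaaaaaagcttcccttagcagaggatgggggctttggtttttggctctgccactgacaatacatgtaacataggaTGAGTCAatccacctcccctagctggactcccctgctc
LATS2 intron, called with TPA: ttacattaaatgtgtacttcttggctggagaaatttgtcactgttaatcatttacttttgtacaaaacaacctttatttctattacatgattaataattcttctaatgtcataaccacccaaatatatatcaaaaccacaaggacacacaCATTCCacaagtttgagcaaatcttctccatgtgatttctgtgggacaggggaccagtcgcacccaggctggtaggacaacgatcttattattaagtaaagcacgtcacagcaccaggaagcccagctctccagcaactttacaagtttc

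None of these 6 regions changed in the same way when each library gave an equal number of regions. Of 30 merged regions in the windows, 0 were then gained with TPA (background 3.82%) and 1 was lost (background 4.50%), the AXL start. With ZnCl2, 0 were gained (background 3.22%) and 2 were lost (background 3.66%), an intronic region of TEAD1 at chr11:12801662-12803731 and the AJUBA start. The loss of the AXL start follows from its rank, given above, and adds nothing to it.

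The TEAD bases given above were found in the central 300 bases of 18 of the 59 regions (30.5%), against 19.1% of all merged regions. The AP-1 bases were found in 16 (27.1%), against 27.0%, and both in 6 (10.2%), against 6.07%. For regions away from coding starts the shares were 31.8% against 21.4% for TEAD and 31.8% against 34.0% for AP-1. The TEAD matches were spread over the genes unevenly, with 5 regions in TEAD1, 3 in WWTR1 and 2 each in YAP1, CCN1, ANKRD1 and AMOTL2, and with 0 of 3 in AJUBA and 0 of 4 in AXL. These shares are descriptions of the reference sequence at called regions, with no test.

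The wider pathway was read from 3 further lists of genes. Among 13 Hippo kinases and upstream regulators, 7 had an open start in all 6 libraries (LATS1, MOB1A, MOB1B, NF2, WWC1, MAP4K4 and FAT1), and the kinase gene STK3 and RASSF1 had none in any. Of 8 tested with TPA, 1 was above both controls and 2 below (median difference -3.05 points), and of 7 tested with ZnCl2, 0 were above and 1 below (median -1.87). Among 10 partners and TEAD family members, 5 (PTPN14, VGLL3, VGLL4, TEAD3 and TEAD4) were open in all 6. With TPA 1 of 7 was above and 2 below (median -1.78), and with ZnCl2 0 of 6 were above and 0 below (median -6.17). VGLL3, a cofactor that binds TEAD proteins, stood at 64.4 and 74.7 in control and 52.0 and 57.3 in TPA. The other gene of that list below control with TPA was TEAD4, a relative of TEAD1, at 80.8 and 81.1 in control and 35.4 and 38.3 in TPA. In the Hippo list the genes below control were WWC1, which encodes the scaffold KIBRA, at 84.1 and 83.7 in control and 55.2 and 30.1 in TPA, and the kinase gene MAP4K4, at 56.8 and 62.1 against 13.1 and 27.9. The genes above control with TPA were STK4, the kinase MST1, at 92.1 and 88.4 against 81.7 and 87.7, and AMOTL1, a relative of AMOTL2, at 55.2 and 63.6 against 20.4 and 52.3. With ZnCl2 the gene below control was NF2, which encodes merlin, at 96.20 and 94.18 against 96.22 and 97.18. All but VGLL3 were named after their values had been seen.

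Of 22 further targets, 11 were open in all 6 libraries and IGFBP3, FOXF2, CCDC80 and RBMS3 in none. With TPA 2 of 14 were above both controls and 4 below (median 2.67), and with ZnCl2 1 of 11 was above and 1 below (median -3.57). NT5E, which encodes the ecto-5'-nucleotidase CD73, was the gene above control with ZnCl2, at 89.3 and 81.9 against 74.5 and 78.4, and it was below control with TPA, at 52.0 and 69.1. ARHGEF17, a guanine nucleotide exchange factor, stood at 92.2 and 94.6 in control and at 73.3 and 76.5 in TPA. With ZnCl2 it was the gene below control, at 88.5 and 88.2. The genes given next had no overlap with TPA and were named after their values had been seen. DOCK5, also an exchange factor, stood at 70.7 and 80.1 in control and at 43.4 and 56.0 in TPA, and CRIM1 at 58.9 and 77.8 against 52.0 and 53.2. F3, which encodes tissue factor, stood above control with TPA, at 80.0 and 77.4 against 62.6 and 74.1. These shares can be read against the same backgrounds as the 10 genes, 11.8% and 21.9% for TPA and 2.74% and 13.6% for ZnCl2.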

How the data were processed

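ATAC-seq libraries of MCF10A cells were prepared by the OMNI-ATAC protocol, 2 for each of control, TPA and ZnCl2, and sequenced in more than 1 run with the runs combined, per the labels. Per the study's methods the authors trimmed adapters with BBDuk, mapped pairs to hg38 with HISAT2 2.1.0, used SAMtools 1.8 and FastQC 0.11.8, and called open regions in each library separately with HMMRATAC, whose version and kind of score are not given in the sources used here. The deposited score is a whole number of at least 30, and no region is narrower than 200 bp. Read counts were not used here, so depth, and any interval that needs it, is unknown.

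Only regions on the assembled chromosomes entered the analysis, and 72 to 203 regions per library lay on other contigs. Percentiles were taken within each list. A region was open over a feature when at least 1 bp overlapped, and the 6 lists were joined into merged regions by overlap or contact. Gene starts and windows came from GENCODE release 44, and sequences from hg38 and RefSeq (GRCh38.p14). GGAATG and TGANTCA were searched on both strands in the central 300 bp of each merged region and in the 250 bp before RefSeq starts. Ties at the edge of the equal-number lists were broken in a seeded random order.

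The members and lists were chosen with earlier results of these data known. Named were the 10 genes, their start-site regions, each region gained or lost with all regions, the highest distal region open in all libraries, up to 3 nearest genes in percentile for CCN1, CCN2 and ANKRD1, and from each further list up to 2 genes per treatment with the largest difference and no overlap both with all regions and with an equal number. That last rule leaves out genes whose region drops out of the equal-number lists, so other genes of these lists with no overlap over all regions were named in addition. Group means were compared by an exact permutation test (two-sided), and a gene was counted as above or below control when the groups did not overlap. No p is given over the list. No source used here says that replicate numbers mark shared cultures. Over 15852 regions open in all libraries, the deviations of replicate 1 correlated at 0.165 between control and TPA, -0.330 between control and ZnCl2 and -0.0577 between TPA and ZnCl2. Of the cell-type markers and of the further targets, 1 each is not reported here. The code was tested on simulated data. Analysis ran in Python 3.11.15 with pandas 2.3.3, NumPy 2.4.6, pysam 0.24.0 and SciPy 1.17.1; samtools 1.23.1 indexed the genome and Matplotlib 3.10.9 drew the figures.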

Additional observations from a re-analysis of the deposited data

How the results depend on the processing

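Depth is unknown, the longest and shortest lists held 44641 and 18887 regions, and 2 libraries against 2 give no p under 0.333. Of 240 values recomputed under other settings, 188 stayed within 1 SD of the libraries or within 1.5 times the reported count. The cause of the other 52 was not tested. The SD was wide, 17.8 points with TPA and 29.7 with ZnCl2 for the library median of start-site percentiles. A difference could thus change sign and still count among the 188. That median difference did so, from 8.01 to -4.58 with TPA without control 1, and from -9.71 to 11.3 with ZnCl2 without ZnCl2 2. The 188 are therefore no measure of stability.

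With an equal number of regions, TPA gained 0 and lost 1 of the regions in the windows, and 0 start-site percentiles were lower with TPA. AXL, lower over the whole lists, could not be tested there, since neither TPA list kept its start region. The difference in open starts with TPA was -0.5 in place of 1. In the upper 50% of each list, TPA gained 0 and ZnCl2 lost 1 region, 1 start-site percentile was higher and 0 lower with TPA, 0 were lower and 0 widths larger with ZnCl2, and the difference in open starts with ZnCl2 was -4 in place of -0.5. In that setting AXL had no TPA call over its start, and YAP1 and AMOTL2 had none in ZnCl2 2, so they could not be tested. With an overlap of at least 50% of the merged region, TPA lost 1 and ZnCl2 lost 1. With any coding start 0 percentiles were lower with TPA, and with the MANE Select start, added after the data had been seen, 2 were. Ranked among start-site regions only, 2 percentiles were lower with ZnCl2 (YAP1 and CCN2) and 0 higher, and 3 were higher with TPA (CCN2, LATS2 and AJUBA) and 1 lower. On that ranking 20.2% and 13.2% of all tested protein-coding genes were lower and higher with ZnCl2, and 23.6% and 23.8% with TPA.

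When each library was left out in turn, regions gained ranged from 3 to 13 with TPA and 0 to 7 with ZnCl2, and regions lost from 0 to 4 and 3 to 17. Start-site percentiles were higher in 2 to 5 genes with TPA and 0 to 1 with ZnCl2, and lower in 1 to 5 and 1 to 6. Start-site widths were larger in 0 to 6 and 1 to 5, and smaller in 1 to 8 and 0 to 5. Regions away from coding starts were higher in 7 to 15 with TPA and 0 to 4 with ZnCl2, and lower in 0 to 8 and 0 to 9. Differences in open starts ranged from 0 to 2 and from -2 to 1, and those in the library median of start-site percentiles, 8.01 with TPA and -9.71 with ZnCl2 over all libraries, from -4.58 to 20.6 and from -30.7 to 11.3.

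With a replicate block, which compares libraries of the same number, gained regions averaged 9 with TPA and 7.5 with ZnCl2 and lost regions 2 and 16 per number, since a call in a single pair then counts. The block left the start-site percentile counts at 2 higher and 1 lower with TPA and gave 1 narrower start-site region with ZnCl2 and 1 lower distal region with TPA. Whether the numbers mark shared cultures is not given in the sources used here. A crossed replicate block for ZnCl2, added after the data had been seen, gave 4.5 gained, 13 lost and 5 lower start-site percentiles.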
